A study of Mus musculus with 8 samples.

Results

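The endocannabinoid genes described here are Cnr1, Cnrip1, Dagla, Daglb, Mgll, Abhd6, Abhd12, Napepld and Faah, in RNA from the mouse ventral pallidum (VP). They were chosen by symbol, as the CB1 receptor, a protein that binds it, and the main enzymes that make and break down its ligands. All 9 were among the 14353 genes of the table and among the 14249 genes tested, which were those over 1 CPM in at least 3 libraries. CPM is the read count of a gene scaled to a common library total.

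The mice carried a homozygous VGluT2-Cre allele and a heterozygous Rpl22 allele (RiboTag), which puts a hemagglutinin (HA) tag on a ribosomal protein in cells with Cre. TRAP (translating ribosome affinity purification) libraries held the mRNA recovered with HA-tagged ribosomes, and INPUT libraries held RNA of the tissue lysate, although the methods also speak of an unbound fraction. The mice formed 4 pools, VP2.11, VP2.6, VP2.2 and VP1.6, and a pool gave 1 library per fraction (n = 4 libraries per fraction). The pools held 7 to 11 mice of both sexes, 38 in all (15 male and 23 female), aged 9 to 12 weeks in VP1.6 and 10 to 16 weeks in the other pools. No group was treated, both fractions carried both alleles, and no library from mice without Cre was analysed here. Cre follows the vGluT2 gene, so cells that expressed that gene only during development can carry the tag too, and VP punches can take in neighbouring striatal tissue.

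Endocannabinoids are lipids that neurons make on demand from membrane phospholipids. In the textbook scheme a postsynaptic cell releases them, they act on CB1 receptors on presynaptic terminals, and transmitter release falls. The main ligands are 2-arachidonoylglycerol (2-AG), made by diacylglycerol lipases, and anandamide, made in part by the phospholipase D encoded by Napepld. 2-AG is broken down mostly by monoacylglycerol lipase (Mgll), with ABHD6 and ABHD12 taking smaller parts, and anandamide by fatty acid amide hydrolase (Faah). Because CB1 protein sits mostly on axon terminals, the mRNA in a cell body and the receptor in the tissue around it need not come from the same neurons.

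The vGluT2 gene Slc17a6 was at 143 ± 13.6 CPM in TRAP and 25.9 ± 10.3 CPM in INPUT (mean ± SD, n = 4 each), with a log2 fold change of 2.55. Of 5 neuronal marker genes, 5 were higher in TRAP in limma without a pool term and 4 with the pool as a block, where Rbfox3 had an adjusted p of 0.095 and a log2 difference of -0.30 in VP2.2. The summed neuronal marker level differed by 0.85 (VP2.11) to 2.12 (VP2.2) on the log2 scale. This sum was mostly Snap25, at a mean of 18607 CPM in TRAP. Each library correlated across genes with the mean of the other 3 of its fraction at r = 0.939 (TRAP VP2.11) to 0.990 (INPUT VP2.6), and TRAP VP2.11 received the lowest sample weight, 0.226. Depth could be estimated from differences within a pool for VP2.2, at about 14 M reads in TRAP and 43 M in INPUT, and for VP2.6, at about 14 and 27 M. At those depths, if the values are plain scaled read counts, every member had at least about 120 reads in a library. The least was for Dagla in TRAP VP2.6. Depth is unknown for VP1.6 and VP2.11.

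Of the 9 genes, 5 were higher in TRAP (Cnrip1, Dagla, Abhd6, Napepld and Faah), 1 was lower (Mgll), and Cnr1, Daglb and Abhd12 did not pass the test (limma without a pool term, Benjamini-Hochberg adjusted over 14249 genes, threshold 0.05). Of all genes tested, 23.2% were higher and 24.8% lower by the same rule. With the pool as a block, which uses the pairing of TRAP and INPUT from the same mice, 1 gene was higher (Faah) and 1 lower (Mgll), where 15.4% and 16.8% of all genes were. The same 5 genes had every TRAP library above every INPUT library and Mgll had every TRAP library below, against 23.3% and 24.4% of all genes. The log2 fold change was positive for 7 of the 9 genes, with a median of 0.42, and the median over all genes was -0.05. Because the values are relative within bulk RNA, fewer cells that express a gene and less of its mRNA per cell cannot be told apart.

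**Figure D1:**
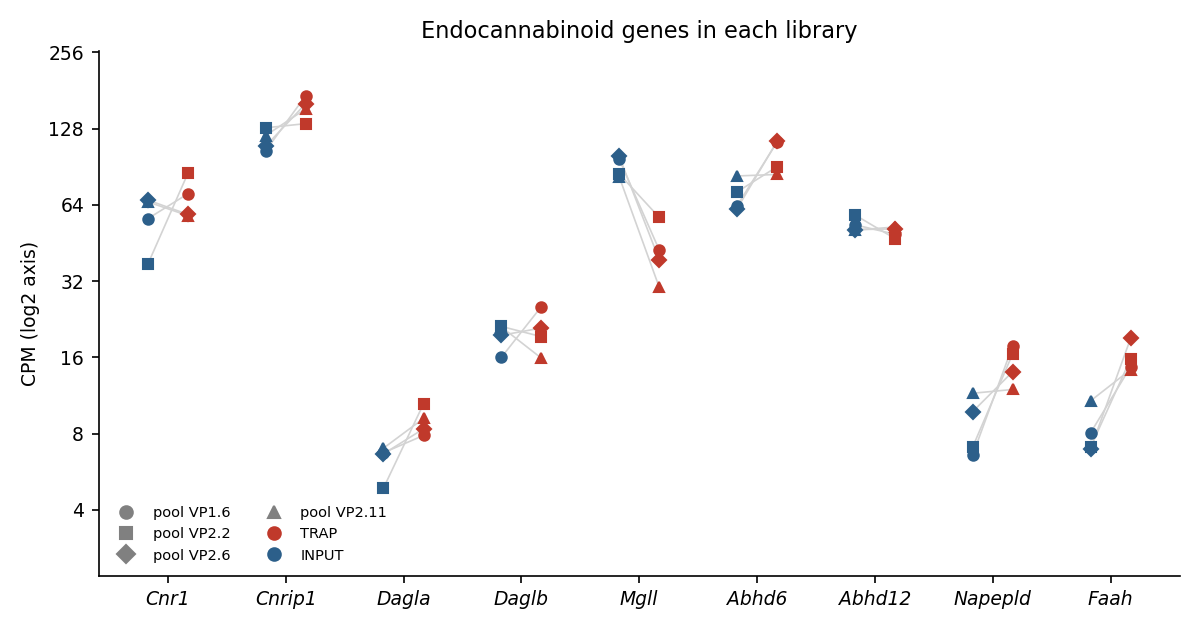
CPM (log2 axis) of the 9 genes in each of the 8 libraries, INPUT in blue and TRAP in red, with marker shapes for pools and grey lines joining the libraries of a pool. The red points of Mgll, 30.3 to 57.1 CPM, lie below all of its blue points, 82.7 to 99.5 CPM, while those of Faah, 14.3 to 19.0 CPM, lie above all of its blue points, 6.95 to 10.8 CPM.

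**Figure D2:**
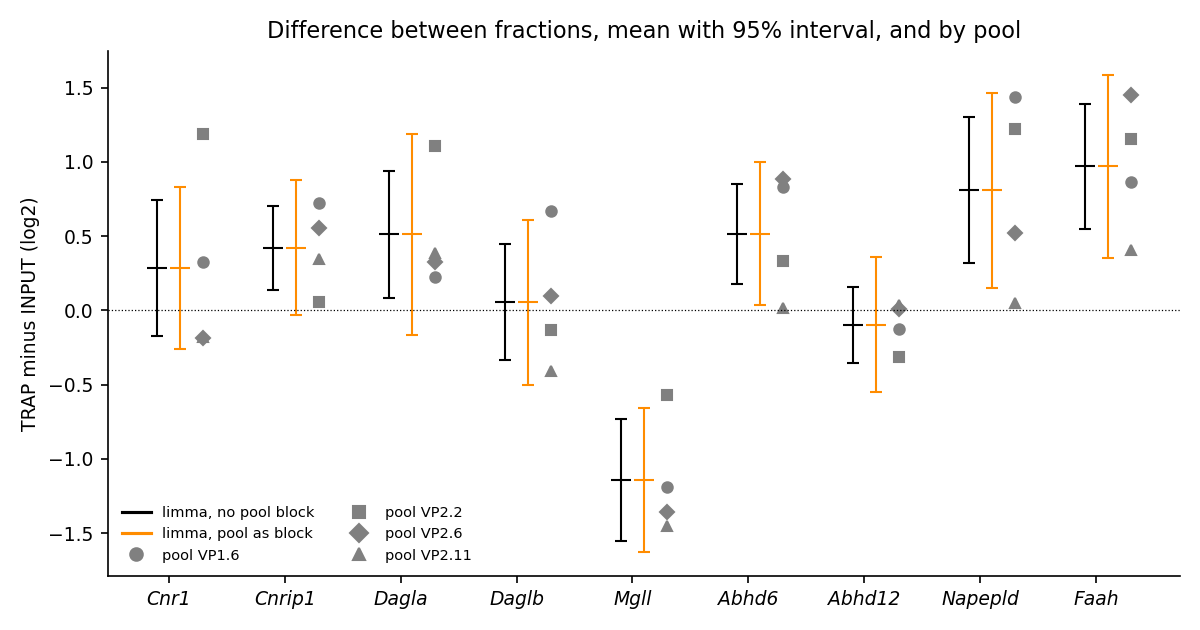
TRAP minus INPUT on the log2 scale for each gene. Horizontal ticks with bars give the mean and its 95% interval from limma without (black) and with (orange) the pool as a block, and grey symbols the 4 pools. Of the orange bars, those of Mgll, Abhd6, Napepld and Faah do not reach 0, before adjustment over all genes.

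Cnr1 (ENSMUSG00000044288, chr4:33924593-33948831, plus strand, GRCm38) encodes the CB1 receptor. Its TRAP level was 70.8 CPM in VP1.6, 85.2 in VP2.2, 58.7 in VP2.6 and 58.1 in VP2.11. The INPUT levels in the same order were 56.5, 37.3, 66.9 and 65.8 CPM, and this order of pools is kept for the genes that follow. The fractions overlapped, with means of 68.2 ± 12.8 CPM in TRAP and 56.6 ± 13.7 CPM in INPUT. VP2.2 held both the highest TRAP level and the lowest INPUT level, and its difference of 1.19 on the log2 scale stood beside 0.33 in VP1.6, -0.19 in VP2.6 and -0.18 in VP2.11. In limma the log2 fold change was 0.29 (SE 0.21, adjusted p = 0.27), and 95% limits with the pool as a block ran from -0.26 to 0.83. Without VP2.2 it was -0.014. Cnr1 was thus read in the TRAP library of each pool, at a level whose difference from INPUT was not resolved with 4 pools, and carry-over from cells without the tag was not measured.

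Cnrip1 (ENSMUSG00000044629, chr11:17051586-17079371, plus strand) encodes a protein that binds the tail of CB1. It was at 173, 134, 161 and 153 CPM in TRAP, in the pool order given for Cnr1, and at 105, 129, 109 and 120 CPM in INPUT. All TRAP libraries lay above all INPUT libraries, but by little in VP2.2, where the log2 difference was 0.05, against 0.35 to 0.72 in the other pools. Cnrip1 had a log2 fold change of 0.42 (SE 0.13), with an adjusted p of 0.020 in limma and of 0.14 with the pool as a block. The Cnr1 to Cnrip1 ratio within a library had a mean log2 value of -1.20 ± 0.37 in TRAP and -1.06 ± 0.49 in INPUT (exact two-sided permutation test, p = 0.63, n = 4 each), so no shift of the receptor against its binding protein was resolved. In VP2.2 this ratio was -0.65 in TRAP and -1.79 in INPUT, the opposite order to the other 3 pools.

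The diacylglycerol lipases make 2-AG, the alpha form (Dagla) being the main one at adult synapses and the beta form (Daglb) being best known from microglia and macrophages. Dagla (ENSMUSG00000035735, chr19:10245265-10304877, minus strand) was at 7.87, 10.5, 8.36 and 9.19 CPM in TRAP, in the pool order given for Cnr1, and at 6.73, 4.88, 6.66 and 7.01 CPM in INPUT. Every TRAP library was above every INPUT library. The pool differences were 0.23, 1.11, 0.33 and 0.39 on the log2 scale, with the largest in VP2.2, whose INPUT level was the lowest of the 4. For Dagla the log2 fold change was 0.51 (SE 0.19), with an adjusted p of 0.048 in limma, of 0.23 with the pool as a block, and of 0.16 after the trend of fold change with exon length across genes was removed. Leaving out any 1 pool ended the call, with adjusted p-values of 0.055 to 0.19 without the block, and without VP2.2 the log2 fold change was 0.32.

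Daglb (ENSMUSG00000039206, chr5:143464584-143505942, plus strand) had TRAP levels of 15.9 to 25.4 CPM and INPUT levels of 16.0 to 21.2 CPM, which overlapped. Its pool differences had both signs, 0.67 in VP1.6, -0.13 in VP2.2, 0.10 in VP2.6 and -0.41 in VP2.11. The log2 fold change was 0.05 (adjusted p = 0.82 in limma, 95% limits -0.50 to 0.61 with the pool as a block), and with the exon length trend removed it turned to -0.37 (adjusted p = 0.28 with the block). Daglb shares 2309 bp, 24.1% of its exon length, with Rac1 on the opposite strand, so without stranded counting its value cannot be assigned to Daglb alone. For Cnrip1 the exon length shared with an opposite gene, Plek, was 4.97%, and for Mgll, with the antisense gene Gm26588, 3.29%. The Dagla to Daglb log2 ratio was 0.46 ± 0.73 higher in TRAP (mean ± SD of 4 pools, exact permutation test, p = 0.20), positive in 3 of 4 pools.

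Mgll (ENSMUSG00000033174, chr6:88724412-88828360, plus strand), the main 2-AG hydrolase, was the member furthest from equal levels. In TRAP it was at 42.5 CPM in VP1.6, 57.1 in VP2.2, 38.9 in VP2.6 and 30.3 in VP2.11. In INPUT it was at 97.0, 84.8, 99.5 and 82.7 CPM. The INPUT mean was 91.0 ± 8.47 CPM and the TRAP mean 42.2 ± 11.2 CPM, and the highest TRAP library was below the lowest INPUT library. All 4 pool differences were negative, -1.19, -0.57, -1.36 and -1.45 on the log2 scale, and the smallest was again in VP2.2. The log2 fold change was -1.14 (SE 0.18), a geometric mean 2.21-fold higher in INPUT, with an adjusted p of 8.0e-04 in limma and of 0.0019 with the pool as a block. It passed the threshold under all 19 alternative settings, with log2 fold changes of -1.33 to -1.04. Among genes ranked by CPM, Mgll was in the top 13.9% of INPUT and the top 28.5% of TRAP.

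Abhd6 and Abhd12 encode serine hydrolases that also take 2-AG, the former on the inner face of the membrane and the latter on the outer. Abhd6 (ENSMUSG00000025277, chr14:8002902-8056763, plus strand) was at 113, 90.6, 114 and 84.4 CPM in TRAP, in the pool order given for Cnr1, and at 63.6, 72.0, 61.8 and 83.3 CPM in INPUT. The TRAP libraries were all above the INPUT libraries, the lowest TRAP and highest INPUT level both being in VP2.11, where the log2 difference was 0.02. The other pools had log2 differences of 0.83, 0.33 and 0.89. Abhd6 had a log2 fold change of 0.52 (SE 0.15, adjusted p = 0.017 in limma), and it did not pass with the pool as a block (adjusted p = 0.092), but did with sample weights and the block (0.69, adjusted p = 0.0062).

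Abhd12 (ENSMUSG00000032046, chr2:150832493-150904741, minus strand) was the least variable member, at 47.2 to 52.3 CPM in TRAP and 50.9 to 58.5 CPM in INPUT. The ranges overlapped, the log2 fold change was -0.10 (adjusted p = 0.51 in limma), and the 95% limits with the pool as a block were -0.55 to 0.36.

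The 3 hydrolases therefore stood in different proportions in the fractions. Per kb of exon, Mgll made up 12.2% ± 3.29 (SD, n = 4) of their summed TRAP level, with a range of 9.90% to 16.99%, and 23.4% to 30.7% of their summed INPUT level. Abhd6 made up 61.8% ± 3.81 in TRAP and 44.5% ± 4.48 in INPUT. Abhd12 made up 23.6% to 30.8% in TRAP and 25.9% to 30.5% in INPUT, so its share overlapped while those of the other 2 did not.

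Ratios within a library gave the same comparison without any scaling between libraries, and 6 pairs of members were compared. The log2 ratio of Dagla to Mgll, synthesis against breakdown of 2-AG, was -2.20 ± 0.34 in TRAP and -3.86 ± 0.23 in INPUT (mean ± SD, n = 4 each). It was higher in TRAP by 1.42 in VP1.6, 1.68 in VP2.2, 1.68 in VP2.6 and 1.84 in VP2.11, a 3.15-fold shift with the smallest spread over pools of the 6 ratios. Abhd6 to Mgll was higher in TRAP by 1.66 ± 0.60 and Abhd12 to Mgll by 1.05 ± 0.55 on the log2 scale, each in 4 of 4 pools. These 3 ratios share Mgll, and each had an exact two-sided permutation p of 0.029, the smallest that 4 against 4 libraries allow, which became 0.057 after Benjamini-Hochberg adjustment over the 6 pairs. None of the 6 thus passed 0.05 after adjustment, and the exact sign-flip test over pools gave 0.125 for each of the 3, its own smallest value.

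**Figure D3:**
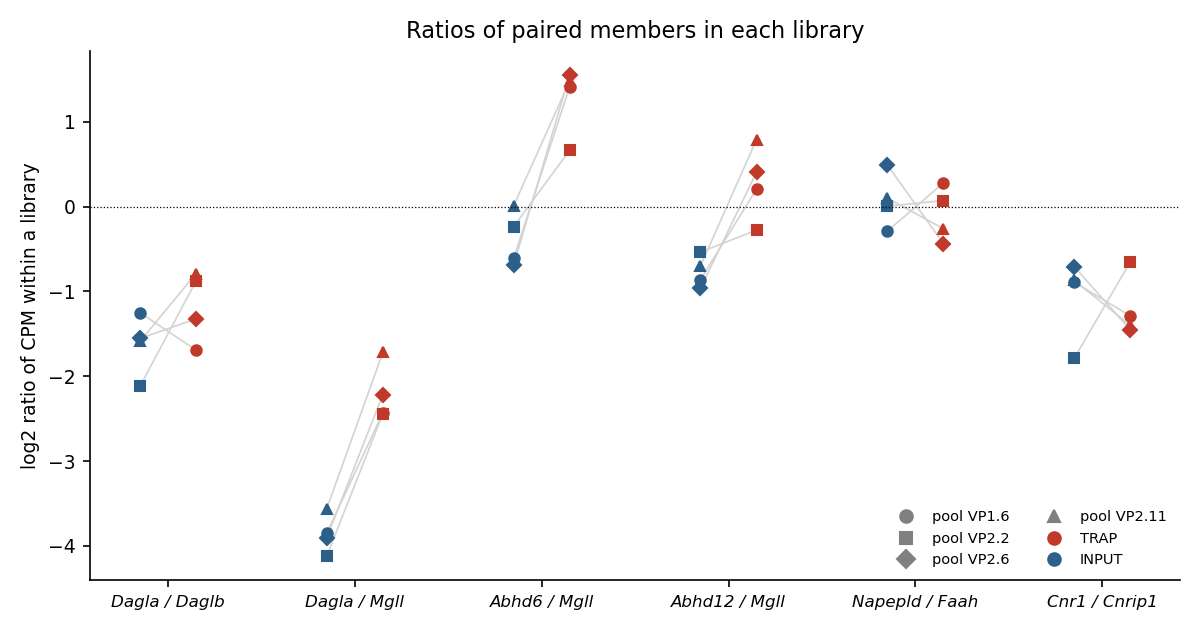
Log2 ratio of the CPM of 2 members within each library, for the 6 pairs compared, INPUT in blue and TRAP in red, with marker shapes for pools and grey lines joining the libraries of a pool. The 3 ratios over Mgll separate by fraction, with Dagla / Mgll at -4.12 to -3.56 in INPUT and -2.44 to -1.72 in TRAP, while the other 3 overlap.

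On the anandamide side, Napepld makes N-acylethanolamines and Faah degrades them, and both were higher in TRAP. Faah (ENSMUSG00000034171, chr4:115967145-116017926, minus strand) was at 14.7 CPM in VP1.6, 15.8 in VP2.2, 19.0 in VP2.6 and 14.3 in VP2.11 in TRAP. In INPUT it was at 8.06, 7.07, 6.95 and 10.8 CPM. The fractions did not overlap, and the log2 differences were 0.87, 1.16, 1.45 and 0.41, positive in 4 of 4 pools. The log2 fold change was 0.97 (SE 0.19), a 1.96-fold higher level, with an adjusted p of 0.0022 in limma and of 0.019 with the pool as a block. With the block, the call was lost when the exon length trend was removed (log2 fold change 0.63, adjusted p = 0.082) and without VP1.6 (adjusted p = 0.059) or VP2.6 (adjusted p = 0.13). Faah has 7834 bp of annotated exon against a median of 4274 bp over all genes tested, and fold change and exon length had a Spearman rho of 0.412 across genes, given as a description since genes are not replicates.

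Napepld (ENSMUSG00000044968, chr5:21662901-21701396, minus strand) was at 17.8, 16.6, 14.1 and 12.0 CPM in TRAP, in the pool order given for Cnr1, and at 6.59, 7.09, 9.78 and 11.6 CPM in INPUT. The TRAP libraries all lay above the INPUT libraries, narrowly in VP2.11. The pool differences spread widely, at 1.44, 1.22, 0.52 and 0.05 on the log2 scale. Napepld had a log2 fold change of 0.81 (SE 0.22), with an adjusted p of 0.013 in limma and of 0.057 with the pool as a block. The Napepld to Faah log2 ratio differed by -0.16 ± 0.64 between TRAP and INPUT, positive in 2 pools and negative in 2 (exact permutation test, p = 0.54), so no shift between the enzyme that makes anandamide and the one that degrades it was resolved.

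Levels can be set against each other between genes only per length. In TRAP the order was Abhd6 (42.5 ± 6.48 CPM per kb of exon), Cnrip1 (38.8 ± 4.08), Abhd12 (17.7 ± 0.84), Cnr1 (10.6 ± 1.98), Mgll (8.31 ± 2.21), Napepld (3.82 ± 0.66), Daglb (2.13 ± 0.41), Faah (2.04 ± 0.27) and Dagla (1.56 ± 0.20). The neighbours Abhd6 and Cnrip1, Cnr1 and Mgll, and Daglb and Faah overlapped over libraries, although Cnr1 was above Mgll in each of the 4 libraries. In INPUT, Mgll was at 17.9 ± 1.67 CPM per kb and stood beside Abhd12 (18.9 ± 1.25), above Cnr1 (8.79 ± 2.12) in every library. The order of Cnr1 and Mgll was therefore opposite in the fractions. Dagla (1.10 ± 0.17) and Faah (1.05 ± 0.23) were the lowest in INPUT and overlapped. These values assume that all annotated exons of a gene are in its transcripts.

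**Figure D4:**
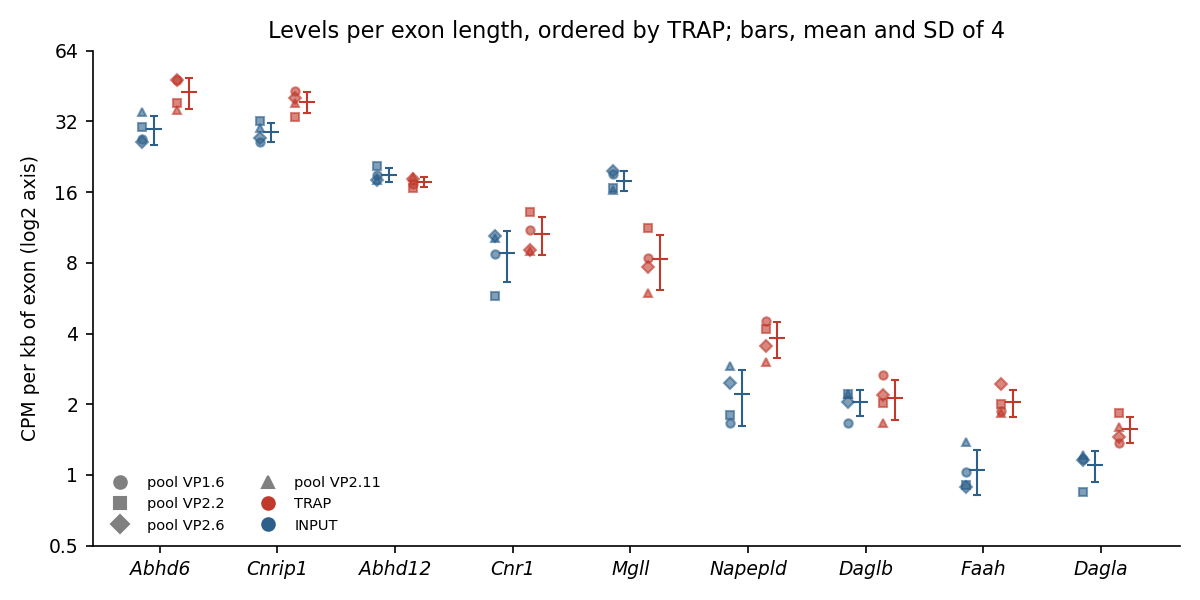
CPM per kb of annotated exon (log2 axis) for each gene, ordered by the TRAP mean. Symbols are libraries by pool, and ticks with bars the mean and SD of 4 libraries, INPUT in blue and TRAP in red. Mgll stands beside Abhd12 in INPUT and beside Cnr1 in TRAP.

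A list of 28 further genes of the pathway was examined, of which 17 were tested and the other 11 were not analysed here. Of the 17, 5 were higher in TRAP and 5 lower in limma without the block, and 3 were higher and 3 lower with it. These counts stand beside shares over all genes of 23.2% and 24.8% in the first fit and 15.4% and 16.8% in the second, so they are near the background. Their median log2 fold change was -0.26. Higher in both fits were Gprasp1, which sorts receptors after endocytosis (547 ± 54.7 CPM in TRAP, 227 ± 67.2 in INPUT, log2 fold change 1.32), and the phospholipases C Plcb1 (487 ± 30.0 and 164 ± 45.3, log2 fold change 1.62) and Plcb4 (223 ± 8.25 and 62.2 ± 19.7, log2 fold change 1.91). Phospholipase C beta enzymes make diacylglycerol, the substrate of Dagla and Daglb. Among the other genes of the list with high TRAP levels, the lipid carriers Scp2 (215 ± 18.0 CPM in TRAP, 259 ± 33.9 in INPUT) and Fabp3 (129 ± 25.6 and 160 ± 41.5) did not pass in either fit.

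Lower in both fits were Abhd4, a lipase of an alternative route to anandamide (24.7 ± 7.13 CPM in TRAP, 107 ± 31.1 in INPUT, log2 fold change -2.13), and the fatty acid binding proteins Fabp5 (log2 fold change -0.98) and Fabp7 (-2.94), which can carry anandamide inside cells. Fabp7, also a known gene of astrocytes and progenitors, was at 13.8 ± 3.33 CPM in TRAP and 108 ± 31.0 in INPUT. Of the genes called only without the block, Gdpd1 (0.55) and Pla2g4e (0.95) had positive log2 fold changes, and Gde1 (-0.32) and the anandamide hydrolase Naaa (-0.67) negative ones.

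Markers of other cells moved between the fractions as well. Of the tested markers, 4 of 5 astrocyte genes, 4 of 5 oligodendrocyte genes and 6 of 6 genes of striatal medium spiny neurons were lower in TRAP in both fits, and microglial genes were lower in 5 of 5 without the block and 3 of 5 with it. Mag, the other oligodendrocyte gene, went the opposite way, with a log2 fold change of 0.61 that was called by limma with no pool term (adjusted p = 0.035) and not called with the block (adjusted p = 0.072). Of the 2 endothelial genes tested, Flt1 was higher in both fits (2.37), from a low INPUT mean of 1.56 CPM, and Pecam1 (0.59) was called in neither. Of the 2 cholinergic genes, Chat was higher without the block (0.70, adjusted p = 0.034 in limma) and not called with it (adjusted p = 0.066). Slc5a7 (0.81) was not called in limma without the block (adjusted p = 0.074) or with it (adjusted p = 0.083). Summed astrocyte markers were at 150 to 253 CPM in TRAP and 343 to 502 CPM in INPUT, and summed oligodendrocyte markers at 900.1 to 1631 and 3506 to 3807 CPM. Summed medium spiny neuron markers were at 387 to 626 CPM in TRAP and 1070 to 1653 in INPUT. The lowest single TRAP value of these lists, of a microglial gene, was 0.72 CPM. Values taken back from a log2 scale cannot be 0, so absence of a marker from TRAP could not be read from them.

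The lower Mgll level thus stood beside lower glial and medium spiny neuron markers in each pool, and the part of these cells in the result was not tested. In VP2.2, where the Mgll difference was smallest, the summed astrocyte difference was also the smallest, at -0.62 against -1.74 to -1.20 in the other pools, and so was the oligodendrocyte difference, at -1.22 against -2.06 to -1.68. The medium spiny neuron and microglial sums did not follow this order, with their smallest differences, -1.16 and -1.39, in VP2.11, where the Mgll difference was the largest. Cnr1, which striatal medium spiny neurons and many GABAergic neurons express, had its largest difference in VP2.2, where the summed GABAergic markers (Gad1, Gad2 and Slc32a1) were 1.43 higher in TRAP on the log2 scale. The neuronal sum (2.12), Slc17a6 (3.17) and the cholinergic sum (1.95) also had their largest differences in VP2.2. The neuronal sum was mostly Snap25, which differed by 2.91 in that pool. Tubb3 (0.61), Stmn2 (0.26) and Rbfox3 (-0.30) instead had their lowest differences in VP2.2, and Syt1 (1.17) was not at its largest. Slc32a1 was lower in TRAP in VP2.2 too (-0.60). In the other 3 pools the GABAergic sum was lower in TRAP, by log2 values of -0.60 to -0.18. The part of any of these in the Cnr1 values was not tested. Across the lists, only Slc32a1 of the 3 GABAergic genes was called, lower in TRAP in both fits.

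**Figure D5:**
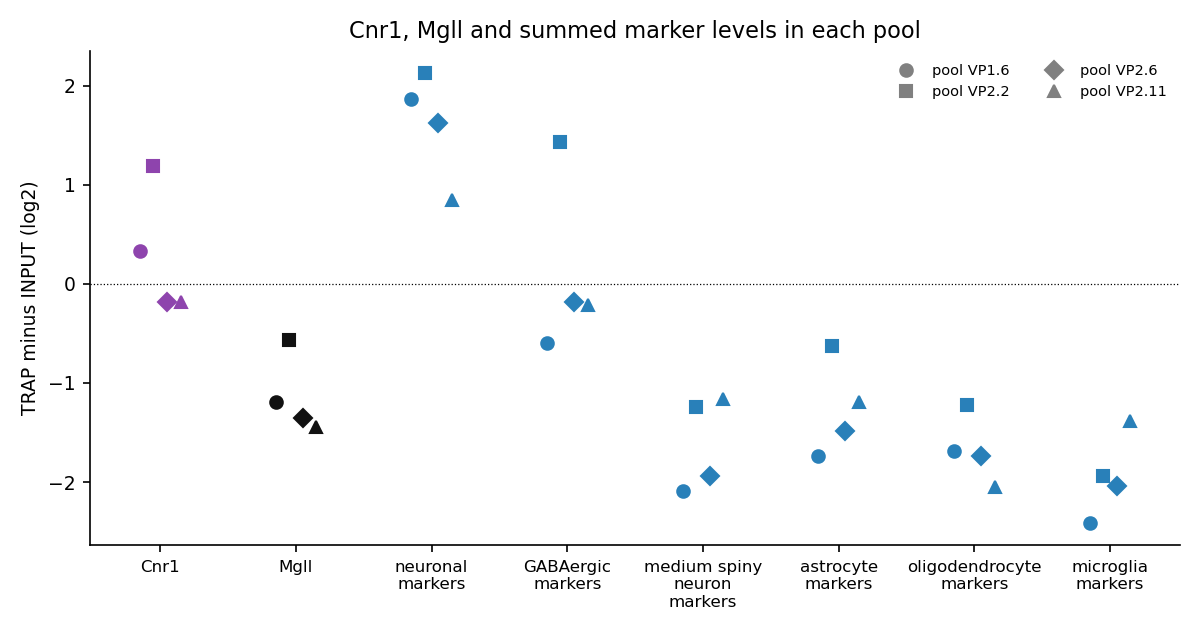
TRAP minus INPUT on the log2 scale in each pool (symbol shape), for Cnr1 (purple), Mgll (black) and the summed CPM of 6 marker lists (blue). In VP2.2 (squares) Cnr1 is 1.19 higher in TRAP and the GABAergic sum 1.43 higher, and Mgll has its smallest difference, -0.57.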

How the data were processed

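The members and gene lists were chosen with earlier results of these data known. RNA from the TRAP and INPUT fractions of 4 pools of VP tissue was sequenced. By their methods and notes, the authors aligned reads with STAR 2.5.1a, counted them per gene with featureCounts, and applied TMM size factors, and they deposited log2 CPM values for 8 libraries. Both VP2.11 libraries and the INPUT library of VP1.6 carry only 3 significant digits. The strand setting of the counting is not given in the sources used here. The deposited fold changes, confidence limits, p-values and transcript counts were not used.

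The table had 14398 entries and 14353 genes once 45 repeats were removed. CPM was 2 to the power of the deposited value, with means taken over CPM and fold changes over log2 values. Exon lengths and positions are from GENCODE M21 (GRCm38). The 14249 genes with more than 1 CPM in 3 or more libraries were compared with limma 3.58.1 (R 4.3.3, trend, two-sided), Benjamini-Hochberg adjusted, called at an adjusted p under 0.05. The main comparison has no pool term, as the study's methods name none. The fit was tested on simulated data. Ratios of 6 pairs fixed by role were compared with exact permutation tests. Genes named are the members and, of the pathway list, those called in either fit and the 5 with the highest TRAP levels. Single markers are named where set beside a member, where they carried or differed from the rest or the sum of their list, and for the endothelial and cholinergic lists. All but those set beside a member were chosen after their values were seen.

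TRAP and INPUT of a pool come from the same mice, which pairs them. Their deviations from the fraction means correlated at -0.745 to -0.495 across genes, against 0.0457 to 0.441 for different pools, so a pool block enlarges the standard errors of all 9 members, and blocked values are given beside calls that change. The pools are separate groups of mice. Blocked limma p-values rest on the spread of the pool differences, and those without the block on the spread of libraries within a fraction. In both fits limma blends a gene's own spread with one estimated over all genes. The p-values thus measure the gene's own spread only in part. Since paired libraries deviate in opposite directions, limma without the block understates the spread of the differences for the members. Depth was estimated from low genes whose TRAP minus INPUT difference within a pool matched a ratio of whole read counts. These were 92% of 1913 genes in VP2.2 and 98% of 1973 in VP2.6. The single values were not matched to whole reads. Whether the deposited values hold any adjustment beyond library scaling was not tested, and why paired libraries deviate in opposite directions was not resolved. Alternatives were the block, sample weights, other scalings, filters, a pseudocount of 1 CPM, removal of the exon length trend, a log2 fold change of at least 1, and leaving out each pool.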

Additional observations from a re-analysis of the deposited data

Results flagged for a closer look

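In groups of 4 libraries, Dixon's test picked out a library in 3 of 30 groups, where chance alone gives about 1 in 20, or 1.5 groups. All 3 were in pool VP2.2. Dagla was at a log2 CPM of 2.29 in INPUT VP2.2, against 2.74 to 2.81 in the other INPUT libraries. The log2 ratio of Abhd6 to Mgll was 0.66 in TRAP VP2.2, against 1.41 to 1.55. The log2 ratio of Cnr1 to Cnrip1 was -1.79 in INPUT VP2.2, against -0.89 to -0.71.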

How the results depend on the processing

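With the pool as a replicate block, members higher in TRAP went from 5 to 1, other pathway genes higher from 5 to 3 and lower from 5 to 3, while the number of genes called went from 6830 to 4592. With the block and the exon length trend removed, 2 members were higher and 3 other pathway genes lower. Requiring a log2 fold change of at least 1 left 3528 genes, 0 members higher, and 3 pathway genes higher and 2 lower. Mgll remained the member lower in TRAP in every alternative run. Leaving out 1 pool, with or without the block, gave 3232 to 6894 genes, 0 to 4 members higher, 3 to 5 pathway genes higher and 3 to 5 lower. The 0 members higher came from the blocked limma fits without VP1.6, where 1 member was higher at an unadjusted p under 0.05, or without VP2.6, where 2 were, and without VP1.6 the fit with no block left 1. The direction of Cnr1 ranged over -0.014 to 0.45 and that of Daglb over -0.15 to 0.21 when 1 pool was left out. With the exon length trend removed, Daglb was at -0.37 and Abhd12 at 0.032. Quantile normalization ended the call of Cnrip1 (0.26, adjusted p = 0.074, limma). Of all recomputed values 314 kept their side of the threshold, moved by less than the spread or, for counts, stayed within a fixed ratio of the main count. A further 44 fell short of the threshold, 28 counts moved beyond that ratio and 8 fold changes changed direction. The fall from 6830 to 4592 genes called lies within that ratio and is among the 314. The 314 include the levels and ratios with 1 pool left out. Leaving out 1 of 4 values cannot move a mean by as much as their SD, so those labels were fixed in advance. The Napepld to Faah ratio (0.092) and the Cnr1 to Cnrip1 ratio (0.069) also turned positive without VP2.6. Before the size rule, which left 0 members higher in limma, 5 members were higher at an unadjusted p under 0.05. Depth is known for VP2.2 and VP2.6 only, and 4 pools limit every test.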

Other observations

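The genes whose log2 profile over the 8 libraries, after centring each gene, was nearest to a member's are given as values. Nearest to Cnr1 were Grin3a, an NMDA receptor subunit (root mean square distance 0.0501 log2 units), Mlh3 (0.0517) and Sos1 (0.0644). Nearest to Mgll was Serp1 (0.0512), to Faah Dgka, a diacylglycerol kinase (0.0428), to Napepld Arhgap42 (0.0484), to Dagla Ngly1 (0.0476), and to Abhd6 Pa2g4 (0.0438). For Cnrip1 it was Idh3b (0.0411), for Daglb Cyb561d1 (0.0434) and for Abhd12 Rpa2 (0.0313). Each was picked as the closest of all other genes tested over only 8 libraries, and a link in function was not tested.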
